A study of Mus musculus with 15 samples.

Results

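The sarcomeric myosin heavy chains described here are 7 genes of the 42396 in each deposited count table: Myh4, Myh1, Myh2, Myh7, Myh8, Myh3 and Myh6. They were taken by name, and all 7 were found in both tables and passed the filter on low counts in both sexes. The RNA came from adult C57BL/6 mice, from the tibialis anterior, which lifts the foot. In the study, AAV6 (adeno-associated virus of serotype 6) had been given in the hindlimb 2 months earlier to overexpress LSMEM2 C-del or, in the mock group, EGFP (a green fluorescent protein). Each sex and treatment is represented by 4 libraries, apart from the mock females with 3. All groups had thus received virus, none was left uninjected, the labels do not say what C-del removes or which promoter drove it, and a whole muscle was read rather than sorted cells. No label says that the libraries of a group are separate animals, so the p-values below measure the spread between libraries, which may be technical. Each sex has its own count table, and the effect of sex and that of the table cannot be told apart.

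A myosin heavy chain is the motor subunit of the thick filament: its head binds actin and splits ATP, and its long tail packs with others into the filament. A muscle fibre is typed by the chain it makes. Myh7 is the chain of slow type I fibres and is also made in the heart. Myh2 is that of fast oxidative IIa fibres, Myh1 that of IIx fibres and Myh4 that of IIb fibres, the fastest and most glycolytic. Myh3 is the embryonic chain and Myh8 the perinatal one, both used in developing and regenerating fibres. Myh6 is a chain of the heart. The mouse tibialis anterior is known as a muscle of mostly IIb and IIx fibres.

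The fast and developmental chains lie side by side on the plus strand of chromosome 11 (RefSeq, GRCm38.p6). Their order is Myh3 (67078273 to 67102291), Myh2 (67171027 to 67197517), Myh1 (67200102 to 67224577), Myh4 (67237812 to 67260447) and Myh8 (67277124 to 67308634). The cardiac pair lies on the minus strand of chromosome 14, with Myh6 at 54941921 to 54968017 and Myh7 at 54970684 to 54994626. Promoter entries were found in RefSeq for all 7. The 4 promoters below, from 180 bases before the start to the first 20 transcribed bases, are shown because the adult fast chains, which hold most of the myosin message here, share one run of letters. Capitals mark that run and the last TATAAA of each window, where it has one. TATAAA is the core promoter element known as the TATA box. The run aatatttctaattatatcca is 20 bases long and was picked as the longest string common to the promoters of Myh1, Myh2 and Myh4. On either strand it was found in those 3 of 32851 RefSeq promoters of 250 bases before to 50 after the start (0.00913%). The run's 14-base core ttctaattatatcc, the longest string common to these promoters and that of Myh8, was found in those 4 (0.0122%). Because both were picked from these promoters, the shares do not measure how unusual the likeness is.
Myh2, chr11:67170847-67171046, plus strand: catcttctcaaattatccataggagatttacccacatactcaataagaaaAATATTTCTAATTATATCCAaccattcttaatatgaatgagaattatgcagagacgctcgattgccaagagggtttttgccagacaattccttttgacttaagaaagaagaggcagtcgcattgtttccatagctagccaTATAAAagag
Myh1, chr11:67199922-67200121, plus strand: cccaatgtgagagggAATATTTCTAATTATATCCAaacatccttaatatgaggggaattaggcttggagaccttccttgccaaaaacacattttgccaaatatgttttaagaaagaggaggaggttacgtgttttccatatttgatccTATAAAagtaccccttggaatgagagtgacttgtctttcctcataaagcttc
Myh4, chr11:67237632-67237831, plus strand: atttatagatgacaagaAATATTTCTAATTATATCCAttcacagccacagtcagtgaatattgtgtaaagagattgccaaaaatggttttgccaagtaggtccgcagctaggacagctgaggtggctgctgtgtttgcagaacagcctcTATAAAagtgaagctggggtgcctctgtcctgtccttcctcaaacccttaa
Myh8, chr11:67276944-67277143, plus strand: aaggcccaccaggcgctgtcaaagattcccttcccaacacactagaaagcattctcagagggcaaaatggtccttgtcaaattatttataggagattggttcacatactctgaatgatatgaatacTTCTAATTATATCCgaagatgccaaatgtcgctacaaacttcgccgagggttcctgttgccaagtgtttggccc

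The run began 165 bases before the annotated start in Myh1, 163 before it in Myh4 and 130 before it in Myh2, and its core 54 before it in Myh8. TATAAA stood 32 bases before the start in Myh1 and 31 before it in Myh4. In Myh2 it began at transcribed base 11, just past the annotated start. TATAAA on either strand was found in 13.6% of all promoters. Of 3 other short motifs searched on both strands, the E-box CANNTG (72.3% of all promoters) was found in Myh3, Myh4, Myh8, Myh6 and Myh7, and CATTCC (MCAT, 14.7%) in Myh1, Myh4, Myh6 and Myh7. The MEF2 site CTANNNNTAG (3.69%) was found in 0 of the 7, which says only that these letters are not in these windows. The shared run holds ctaattatat, which differs from this pattern only in its last letter. No matched TATAAA, E-box or MCAT site overlapped the shared run.

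The chains are also alike in their coding sequence, which bears on how reads can be assigned to them. Aligned coding sequences were 91% identical between Myh1 and Myh2, 90.1% between Myh1 and Myh4, 88.1% between Myh2 and Myh4 and 91.4% between Myh6 and Myh7. The longest identical coding run of Myh1 and Myh2 is shown because reads inside it cannot be told apart. It is 268 bases long and lies in exons 23 to 24 of both (chr11:67213219-67213597 in Myh1 and chr11:67188318-67188696 in Myh2, GRCm38, plus strand, intron left out).
Myh1 and Myh2, shared run: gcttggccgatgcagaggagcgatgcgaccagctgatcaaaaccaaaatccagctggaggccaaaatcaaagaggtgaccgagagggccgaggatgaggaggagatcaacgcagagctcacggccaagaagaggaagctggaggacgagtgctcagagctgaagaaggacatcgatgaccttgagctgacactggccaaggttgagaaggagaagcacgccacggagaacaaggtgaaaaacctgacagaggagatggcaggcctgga

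The 3 windows below are shown as the opposite case, the 60 coding bases in which Myh4, Myh1 and Myh2 differ most. Capitals mark the 24 columns in which the 3 are not all the same, and the window lies in exon 28 of Myh4 and exon 29 of Myh1 and Myh2.
Myh4, chr11:67254458-67254517, plus strand: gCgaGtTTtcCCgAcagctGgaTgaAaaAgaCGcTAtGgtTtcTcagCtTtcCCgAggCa
Myh1, chr11:67217464-67217523, plus strand: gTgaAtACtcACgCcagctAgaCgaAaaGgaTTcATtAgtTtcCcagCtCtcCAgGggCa
Myh2, chr11:67191348-67191407, plus strand: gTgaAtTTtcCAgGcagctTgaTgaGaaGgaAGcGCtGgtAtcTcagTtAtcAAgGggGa

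Over whole transcripts, 16.6% of 75-base windows of Myh1 also occurred in another chain, as did 16.3% of Myh2, 12.9% of Myh8 and 9.68% of Myh4. Myh6 and Myh7 shared 15.5% and 15.3% of their windows with each other and none of that length with the chains of chromosome 11. Myh3 stood apart, with 1.86%. Of the counts deposited for the 7 chains, 93.3% were not whole numbers, against 14.6% to 17.3% per library over all genes. These shares are of count values, not of reads, and are not matched for abundance. How shared reads were divided is not given in the sources used here.

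The libraries held 14297620 to 17744015 counts in males and 9285145 to 12054871 in females. The labels name skeletal muscle while the extraction text names another organ, the heart. Of 13 cardiac markers, 4 passed the low-count filter in each sex, the highest level of any was 21.5 CPM (for Myl4, which fetal muscle also makes; CPM is the count per TMM-scaled library size), and Gata4 was at 0 in all 15 libraries; Myh4 reached 46610 CPM. Lsmem2, the delivered gene, was at 28.5 to 32.7 CPM in the 7 mock libraries and at 481 to 2705 in the 8 C-del libraries. The lowest of these, 481 CPM, was male C-del library 1, with 2355, 1865 and 1287 CPM in male C-del libraries 2, 3 and 4. Summed macrophage markers set some libraries apart: 216 and 241 CPM in male C-del libraries 1 and 2 against 65.4 to 96.7 in the other 6 male libraries, and 766 and 371 in female mock libraries 2 and 3 against 62.4 to 132 in the other 5 female libraries. Tendon markers were highest in male mock libraries 3 and 4 (2481 and 1536 CPM against 696 to 984 in the rest of the males). The effects on the chains, the calls of the gene lists and the correlations were also computed without these pairs of libraries; for the lists and correlations this was added after the data were seen.

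The 7 chains together took 3.63% to 6.07% of all counts of a library. By group they took 5.85% ± 0.172 (SD, n = 4) in male mock, 5.27% ± 0.254 (n = 4) in male C-del, 4.28% ± 0.642 (n = 3) in female mock and 4.19% ± 0.22 (n = 4) in female C-del libraries. To compare chains with one another, levels were divided by the length of each gene's exons (CPM per kilobase). The order Myh4, Myh1, Myh2, Myh8 held in 15 of 15 libraries. In male mock libraries Myh4 stood at 7288 ± 363, Myh1 at 1928 ± 27.6, Myh2 at 200 ± 11.3 and Myh8 at 51.5 ± 3.98 CPM per kilobase (SD, n = 4). These 4 did not overlap in any group, so IIb and IIx messages made up most of the myosin message and IIa a small part. Among all genes Myh4 held rank 6 to 12 and Myh1 rank 13 to 28 per kilobase.

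Below Myh8 the order was less fixed. Per kilobase, Myh3 came next in 13 of 15 libraries and Myh7 in 2, both of them female. This place depends on the length used. Exon lengths were 8616 bases for Myh7, 11772 for Myh8 and 6057 for Myh3, against longest transcripts of 6230, 6149 and 6031. The levels and shares of Myh7 and Myh8 were thus lowered more than those of Myh3. In CPM, Myh7 was above Myh3 in every female mock library (22.6, 9.74 and 16.9 against 13.1, 8.95 and 12.2). In males Myh3 (1.53 to 10.8 CPM per kilobase) lay above Myh6 and Myh7, which overlapped with each other (0.432 to 0.905 and 0.173 to 0.971). In female mock libraries Myh3 (1.48 to 2.16) and Myh7 (1.13 to 2.62) overlapped and Myh6 (0.613 to 0.896) lay below both. Against the IIa chain Myh2, the slow chain Myh7 reached a log2 ratio per kilobase of -6.65 at most. The plot of levels by library shows each chain on its own scale.

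**Figure D1:**
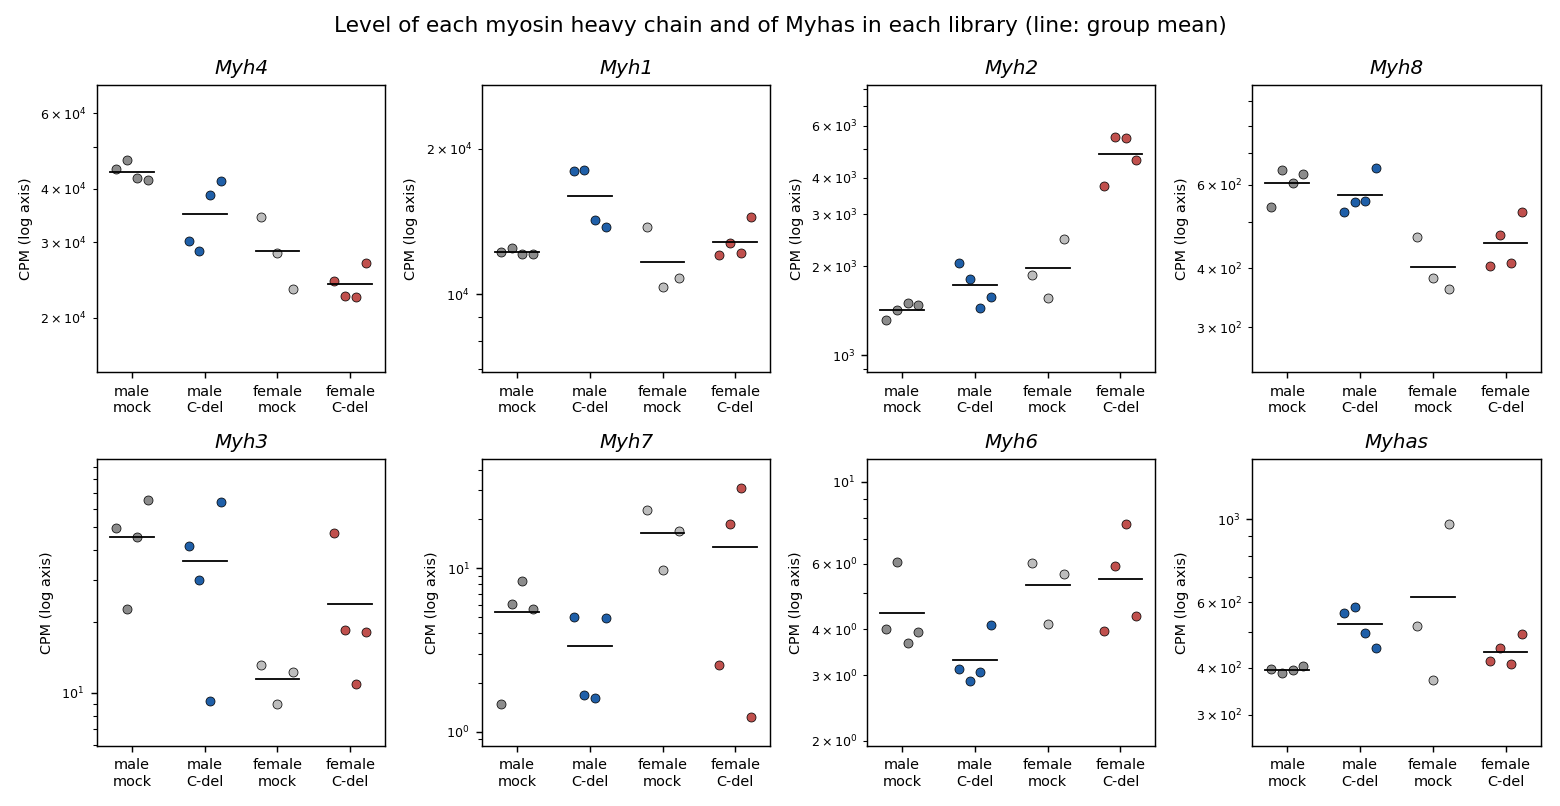
Level of each chain and of the antisense transcript Myhas in each library, in CPM on log axes that differ between panels; points are libraries and lines are group means. Myh2 is higher in every female C-del library (3743 to 5489) than in every female mock library (1563 to 2480), whereas Myh4 is highest in male mock libraries.

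In male C-del against male mock libraries, the IIx chain Myh1 rose and was the only 1 of the 7 chains that passed. The IIb chain Myh4 was lower in every C-del library than in every mock library but did not pass. Myh1 was at 12220, 12500, 12150 and 12120 CPM in the mock libraries and at 17970, 18080, 14240 and 13760 in the C-del libraries. The groups did not overlap, and C-del libraries 1 and 2 lay well above 3 and 4. The log2 fold change was 0.39 ± 0.0842 (SE), or 1.31-fold (edgeR quasi-likelihood test, adjusted p = 0.0114). Over all 14543 genes tested in males 11.2% passed, 5.8% higher and 5.37% lower, so 1 chain of 7 is close to the background. Groups of CPM values were separate, C-del above mock, for 9.08% of genes and, C-del below mock, for 8.47%.

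Myh4 was at 44570, 46610, 42320 and 41880 CPM in male mock and at 30220, 28660, 38770 and 41680 in male C-del libraries. The groups came close, with the highest C-del library just under the lowest mock library. Its log2 fold change was -0.33 ± 0.114 (edgeR, adjusted p = 0.096). Myh2 was at 1318, 1424, 1500 and 1477 CPM in mock and at 2057, 1816, 1452 and 1582 in C-del libraries, and the groups overlapped (log2 fold change 0.27 ± 0.0982, edgeR adjusted p = 0.111). The same C-del libraries, 1 and 2, were the high ones for Myh1 and Myh2 and the low ones for Myh4.

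Without C-del libraries 1 and 2, the log2 fold change of Myh1 was 0.19 (edgeR, adjusted p = 0.00518), that of Myh4 -0.12 (0.143) and that of Myh2 0.09 (0.383). The call on Myh1 was thus kept at a smaller size. Without mock libraries 3 and 4, Myh1 stood at 0.37 and no longer passed (edgeR, adjusted p = 0.101). Its call was also lost with no filter on low counts (0.0921), with scaling by library size alone (0.0639) and in the fit of all 15 libraries (0.0753). Myh2 passed without C-del library 3 (0.35, 0.017) and with DESeq2 (0.27, 0.0235), and Myh4 without C-del library 4 (-0.43, 0.0188) and with library size alone (-0.36, 0.045). The part of macrophage or tendon RNA in these values was not tested. In a bulk sample, fewer fibres of a type and less RNA per fibre cannot be told apart.

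The other male values were smaller or looser. Myh8 was at 540 to 645 CPM in mock and 525 to 650 in C-del libraries (log2 fold change -0.09 ± 0.0702). Myh3 was at 22.6 to 65.1 and 9.24 to 64.1 CPM (-0.33 ± 0.585). Myh6, at 3.66 to 6.09 and 2.9 to 4.11 CPM, gave -0.43 ± 0.179, and Myh7, at 1.49 to 8.37 and 1.62 to 5.01 CPM, gave -0.68 ± 0.61. None of these 4 passed (edgeR, adjusted p 0.147 to 0.782), and the groups overlapped for each. Myh6 and Myh7 rested on 45.8 to 90.8 and 23 to 123 counts per male library. The spread of Myh7 between male libraries was wide, with a coefficient of variation of 53.2% in mock and 58.2% in C-del.

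In females the IIa chain Myh2 gave the largest difference of the 7 and was the only chain whose groups were apart in CPM. It was at 1875, 1563 and 2480 CPM in the mock libraries and at 3743, 5489, 5430 and 4603 in the C-del libraries. The lowest C-del value exceeded the highest mock value, which was that of mock library 3. The log2 fold change was 1.29 ± 0.191 or 2.44-fold, with an edgeR adjusted p of 0.0775 and an unadjusted p of 6.67e-05. It did not pass at 0.05, in a comparison in which 0.0141% of 14220 genes did (2 genes). C-del lay wholly above mock for 5.71% of those genes. Without mock libraries 2 and 3, which carry the most macrophage RNA, the value was 1.36 (adjusted p = 0.246, a single mock library left). Without mock library 1 it was 1.25 and passed (adjusted p = 0.0102), and DESeq2 on all 7 libraries passed it as well (1.29, adjusted p = 4.74e-08).

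Myh1 was at 13800, 10370 and 10840 CPM in female mock and at 12080, 12750, 12180 and 14450 in female C-del libraries. The groups overlapped, with mock library 1 above 3 of the 4 C-del libraries (log2 fold change 0.14 ± 0.13, edgeR adjusted p = 0.693). Without mock libraries 2 and 3 this value changed sign, to -0.10. Myh4 was at 34410, 28270 and 23380 CPM in mock and at 24380, 22430, 22380 and 26770 in C-del libraries (-0.26 ± 0.142, adjusted p = 0.517). Here too the groups overlapped, since mock library 3 was among the low values.

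Among the developmental and slow chains in females, Myh3 was at 13.1, 8.95 and 12.2 CPM in mock and at 47.4, 18.4, 10.9 and 18.1 in C-del libraries. The groups overlapped and C-del library 1 stood well above the rest (log2 fold change 1.06 ± 0.461, edgeR adjusted p = 0.414). Leaving that library out took the value to 0.471 (adjusted p = 0.545). Myh7 was at 22.6, 9.74 and 16.9 CPM in mock and at 2.58, 18.7, 31.1 and 1.23 in C-del libraries. The C-del libraries thus fell into 2 low and 2 high values, with a coefficient of variation of 106% (log2 fold change -0.28 ± 0.852, adjusted p = 0.917). Myh8 (362.3 to 465.6 CPM in mock and 404.6 to 526.3 in C-del) and Myh6 (4.12 to 6.03 and 3.94 to 7.69) did not pass either, at 0.17 ± 0.135 and 0.06 ± 0.264.

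**Figure D2:**
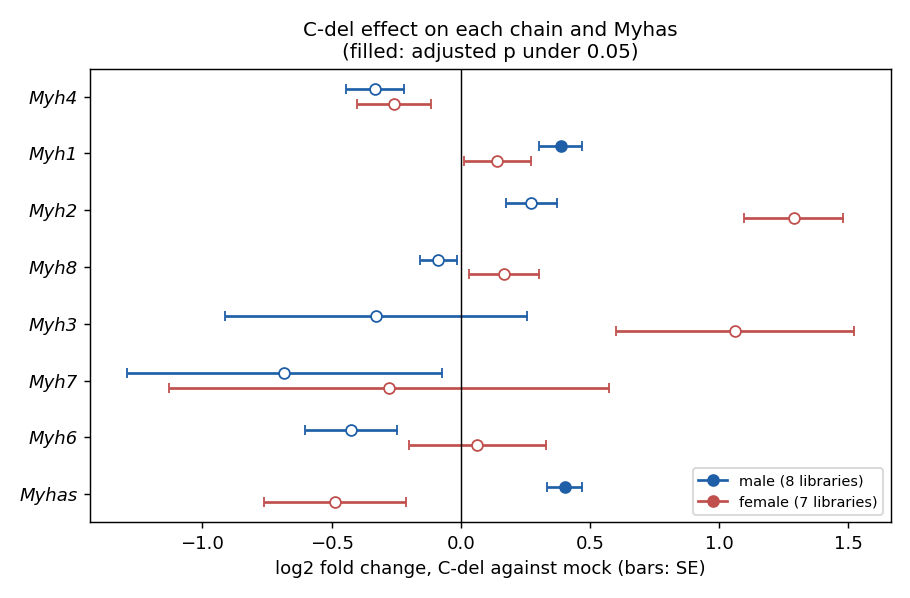
Log2 fold change of C-del against mock for each chain and Myhas from the fit of each sex, with SE bars; filled points have an adjusted p under 0.05. Myh1 (0.39) and Myhas (0.40) pass in males, and Myh2 in females has the largest value, 1.29, without passing.

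The mean of the male and female effects, from a fit of all 15 libraries, passed for Myh2 alone among the 7. Its log2 fold change was 0.78 ± 0.111, or 1.72-fold (edgeR, adjusted p = 0.000759), against a background of 4.41% of 15272 genes, 2.42% higher and 1.99% lower. It passed under all 27 alternatives tried for it, with an adjusted p of 6.3e-10 to 0.00881. Myh1 stood at 0.26 ± 0.0804 (0.0722) and Myh4 at -0.29 ± 0.0928 (0.0841). Without female mock library 1 Myh1 passed (0.34, 0.00753), and without female mock library 3 Myh4 passed (-0.35, 0.025). The effect on Myh2 was larger in females than in males by 1.01 ± 0.22 on the log2 scale, which did not pass (adjusted p = 0.0581, with 0.354% of genes passing). With DESeq2 that difference passed (1.01, adjusted p = 0.00152), as it did without female mock library 1, female mock library 3 or female C-del library 1 (0.0155, 0.0236 and 0.0311). For the other 6 chains the difference between the sexes ran from -0.25 for Myh1 to 1.39 ± 0.859 for Myh3 and none passed. The median log2 fold change over all genes was -0.00475 in males and -0.015 in females, and over the 7 chains -0.33 and 0.14.

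To describe the makeup of the myosin message, each chain was also read as its share of the 7, in counts per kilobase. The shares of a library sum to 100%, so they are tied: with Myh4 as the largest part, a lower share of Myh4 raises the shares of the others, and the shares are not separate results. In both sexes the share of the IIb chain was lower and that of the IIx chain higher in every C-del library than in every mock library of that sex. In males Myh4 took 77.4%, 77.7%, 76.3% and 76.2% of the sum in mock and 61.3%, 60.2%, 72.1% and 73.8% in C-del libraries. The mock libraries lay within a narrow band and the C-del libraries fell into a low and a higher pair. The difference of means was -10.03 percentage points (exact two-sided permutation test, p = 0.0286, the smallest that 4 against 4 allows). Myh1 went the other way, from 20.4% ± 0.539 to 29.7% ± 6.52 (SD, n = 4 each), a difference of 9.298 percentage points (exact permutation test, p = 0.0286). Without C-del libraries 1 and 2 these differences were -3.92 and 3.72 percentage points, with the groups still apart. The male share of Myh2 was 2.12% ± 0.18 in mock and 2.84% ± 0.618 in C-del libraries (n = 4 each), and the groups overlapped (exact permutation p = 0.0571). These p-values are unadjusted and belong to 14 such comparisons.

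In females Myh4 took 69.8%, 71.4% and 65.04% in mock and 62.1%, 56.9%, 57.8% and 59.98% in C-del libraries, a difference of -9.51 percentage points. Myh2 took 3.21%, 3.33% and 5.81% in mock and 8.04%, 11.7%, 11.8% and 8.70% in C-del libraries, a difference of 5.96 points. Myh1 took 26.6% ± 1.89 (n = 3) and 30.1% ± 0.729 (n = 4), a difference of 3.45 points. The groups of all 3 were separate, and so were those of Myh8 (0.482% to 0.515% in mock and 0.527% to 0.609% in C-del). As parts of 1 sum, these 4 are not independent, and Myh1, Myh4 and Myh8 overlapped between the groups in CPM. Each gave the smallest p that 3 against 4 allows (exact two-sided permutation test, p = 0.0571), so no share in females could reach 0.05. Without mock libraries 2 and 3 the differences of Myh4, Myh2 and Myh1 were -10.55, 6.87 and 3.57 points.

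**Figure D3:**
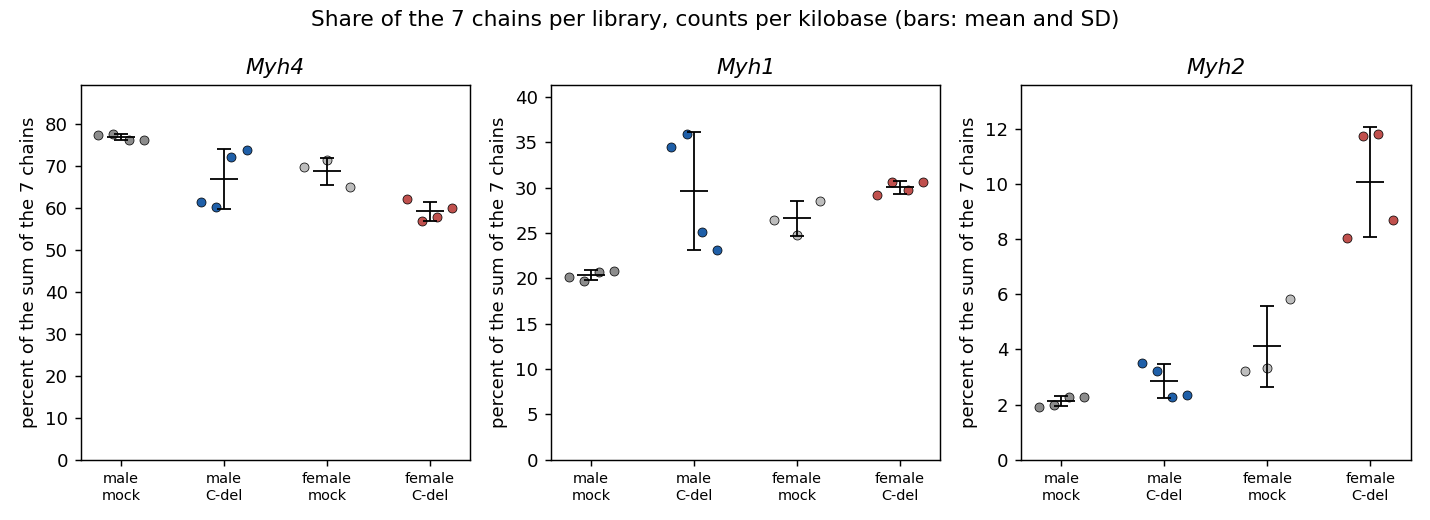
Share of Myh4, Myh1 and Myh2 in the sum of the 7 chains per library, in percent of counts per kilobase; points are libraries, bars are mean and SD, and each panel starts at 0 with its own scale. Within each sex every C-del library is below every mock library for Myh4 and above every one for Myh1, and for Myh2 the female groups are apart (3.21% to 5.81% against 8.04% to 11.8%).

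Ratios within a library, which do not depend on how libraries are scaled, describe pairs of chains in each sex. The ratios were not tested between the sexes. The log2 ratio of Myh1 to Myh4 was -1.92 ± 0.0525 in male mock and -1.19 ± 0.476 in male C-del libraries, a difference of 0.72 (n = 4 each, exact permutation p = 0.0286). In females it was -1.37 ± 0.171 (n = 3) and -0.98 ± 0.0827 (n = 4), a difference of 0.39 (exact permutation p = 0.0571). The log2 ratio of Myh2 to Myh1 was -3.27 ± 0.0907 and -3.38 ± 0.105 in males, where the groups overlapped (n = 4 each, exact permutation p = 0.2). In females that ratio was -2.75 ± 0.398 and -1.60 ± 0.278, a difference of 1.149 with the groups apart (n = 3 and 4, exact permutation p = 0.0571). The ratio of slow Myh7 to Myh2 was lower in every female C-del library (-12.1 to -7.72) than in every female mock library (-7.60 to -6.65; exact permutation p = 0.0571), and overlapped in males. Myh7 rested on only 12.25 to 368.25 counts per female library. The p-values of the 6 ratios are unadjusted.

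Myhas is an antisense RNA of the region between Myh1 and Myh4 (RefSeq, chromosome 11, 67224196 to 67237281, reaching into the end of Myh1; GENCODE M21 extends it from 67211256 to 67237573 on the minus strand). Since the use of strand in counting is not given in the sources used here, its reads and those of Myh1 cannot be separated with certainty where they overlap. In males Myhas rose with Myh1, from 397.5, 386.8, 394.1 and 405.8 CPM in mock to 561.3, 582.8, 496.5 and 452.7 in C-del libraries, with the groups apart. The log2 fold change was 0.40 ± 0.0673 (edgeR, adjusted p = 0.0019), and 0.26 (0.0036) without C-del libraries 1 and 2. In the fit of all 15 libraries the value was 0.41 and did not pass (0.392). Across the 8 male libraries Pearson's r between the log2 levels of Myhas and Myh1 was 0.975, and between Myhas and Myh4 -0.951; these libraries share the group difference. Without C-del libraries 1 and 2 they were 0.944 and -0.846 (6 libraries). Female values were 519.6, 371.2 and 969.1 CPM in mock and 416.4, 451.7, 408.8 and 492.1 in C-del libraries (-0.49 ± 0.275, adjusted p = 0.528), and mock library 3 stood far above the rest. The female values rest on that library: without it the log2 fold change was -0.01 (adjusted p = 0.987), and r with Myh1 went from -0.128 over 7 libraries to 0.943 over 6. The difference of the Myhas effects between the sexes was -0.90 ± 0.307 (adjusted p = 0.151). It passed without female mock library 2 (-1.15, 0.031) and was -0.41 (0.22) without female mock library 3.

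**Figure D4:**
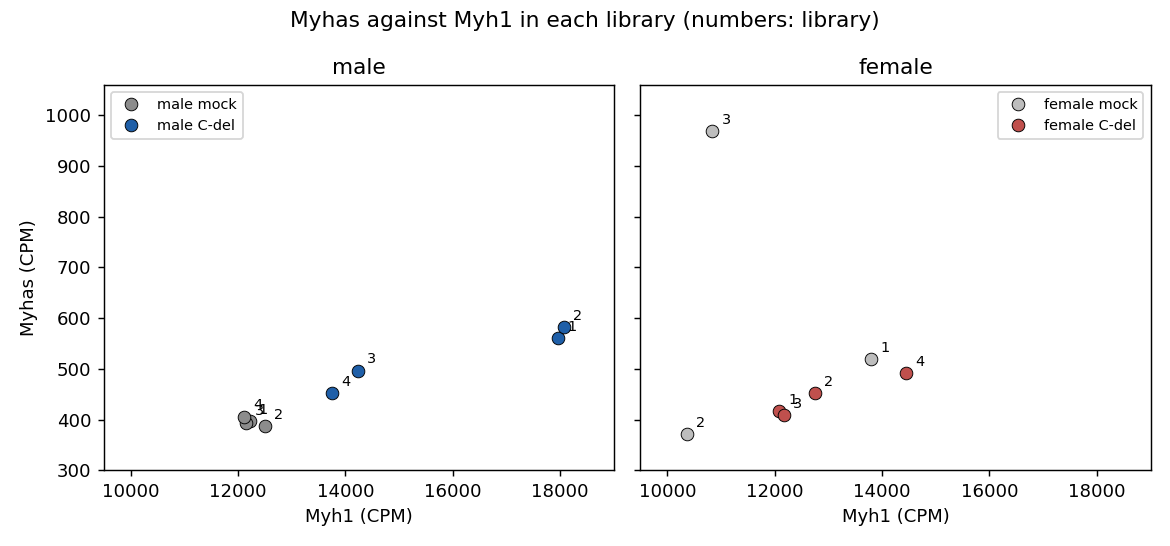
Myhas against Myh1 in CPM, males on the left (8 libraries) and females on the right (7), with the library number beside each point. The male points rise together from the 4 mock libraries to C-del libraries 1 and 2, and female mock library 3 lies apart at 969.1 CPM of Myhas and 10840 CPM of Myh1, while the other 6 female points also rise together.

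Among other genes overlapping a chain, Mhrt and Gm31251, antisense RNAs at Myh7, reached 3.95 and 8.64 CPM at most, and the miRNA genes Mir208a, Mir208b and Mir6923 were listed at 0 in every library. GENCODE M21 also places an antisense transcript, 9430073C21Rik, over the end of Myh2, which was not analysed here. Between chains, the male libraries gave r = -0.959 for Myh1 and Myh4 and 0.895 for Myh1 and Myh2. In females Myh1 and Myh4 gave 0.298, Myh1 and Myh8 0.932, and Myh2 and Myh4 -0.708. These are descriptions over 8 and 7 libraries that hold both groups. With male C-del libraries 1 and 2 left out, r was -0.654 for Myh1 and Myh4 and 0.395 for Myh1 and Myh2 (6 libraries). With female mock libraries 2 and 3 left out, the female values were 0.664, 0.924 and -0.937 in the order above (5 libraries).

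The genes whose log2 levels followed each chain most closely in both sexes were found among 11734 genes by the smaller of the male and female Pearson correlations (8 and 7 libraries). For Myh2 they were Myom3 (0.919), an M-band protein, Actn2 (0.904), the alpha-actinin of the Z-disc in all fibres, and Myoz2 (0.901), a Z-disc protein of slow and oxidative fibres. Myom3 was at 8.12 ± 1.25 CPM in male mock and 15.4 ± 4.48 in male C-del libraries (n = 4 each; log2 fold change 0.92 ± 0.214, edgeR adjusted p = 0.0266), and at 13.9 ± 1.87 (n = 3) and 40.9 ± 13 (n = 4) in females (1.56 ± 0.254, adjusted p = 0.109). Actn2 gave 0.35 ± 0.114 in males and 0.75 ± 0.19 in females, and Myoz2 0.73 ± 0.192 and 1.07 ± 0.291, of which none passed. For Myh4 the closest were Vps26a (0.897), part of the retromer that sorts endosomal cargo, Actn3 (0.863), the alpha-actinin of fast fibres, and Heatr3 (0.845).

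For Myh1 they were Nploc4 (0.877), Ppm1b (0.867) and Mapkap1 (0.867), a cofactor of protein extraction by p97, a protein phosphatase and a subunit of mTORC2. For Myh7 they were Ccl25 (0.75), Tnni1 (0.746), the slow troponin I, and Znhit3 (0.712), and for Myh6 Zxda (0.843), Myl10 (0.808) and Ggact (0.781). Myh3 had Ssc5d (0.738), Gmps (0.737) and Maged1 (0.731), and Myh8 had Zfp128 (0.831), Zfp882 (0.79) and Itfg2 (0.777). With Spearman's rho in place of Pearson's r, at most 1 of the 3 genes was kept for any chain; the cause was not tested. Without male C-del libraries 1 and 2 the male r of Myh2 was 0.781 with Myom3, 0.614 with Myoz2 and 0.258 with Actn2. That of Myh4 was 0.445 with Vps26a and turned negative with Actn3 (-0.392) and Heatr3 (-0.587), and that of Myh1 with Ppm1b fell to 0.521. For the genes named for Myh3, Myh6, Myh7 and Myh8 it stayed between 0.668 and 0.909. Without female mock libraries 2 and 3 the female r of Myh1 was 0.599 with Nploc4, 0.587 with Ppm1b and 0.707 with Mapkap1 (5 libraries). For the genes named for the other chains the female r then lay between 0.766 and 0.992.

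Lists of other genes of the contractile programme were counted in the same fits. They are read against all genes tested, of which 5.8% were higher and 5.37% lower in males, and 2.42% and 1.99% in the mean of both sexes. Without male C-del libraries 1 and 2 those male shares were 4.33% and 3.24%, and without male mock libraries 3 and 4 they were 2.62% and 2.5%. Of 16 slow fibre genes, 1 rose in males, Mb (myoglobin, which stores oxygen; log2 fold change 0.41 ± 0.0988, edgeR adjusted p = 0.0246), and 0 fell, which is near the share over all genes. Mb was at 0.20 (0.0148) without C-del libraries 1 and 2 and did not pass without mock libraries 3 and 4 (0.46, 0.0882). In females 0 passed in either direction (edgeR; 6 had an unadjusted p under 0.05, counting 5 higher and 1 lower). In the mean of both sexes Myoz2 (0.90 ± 0.186, adjusted p = 0.0169) and Ankrd2, a stretch-responsive protein of slow fibres (1.51 ± 0.353, 0.0341), were higher; neither passed without male C-del libraries 1 and 2 (0.74, 0.0816, and 1.27, 0.128), and Ankrd2 did not without male mock libraries 3 and 4 (1.61, 0.0883). For the slow troponins the values were near 0 or below it: Tnnt1, Tnni1 and Tnnc1 gave -0.04, 0.17 and -0.51 in males and -0.48, -0.50 and -0.59 in females, and none passed. The median over the list was -0.01 in males and 0.22 in females, beside -0.00475 and -0.015 over all genes.

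As given above, 5.8% of all genes rose and 5.37% fell in males, and 2.42% and 1.99% in the mean of both sexes. Of 17 fast fibre genes, 2 fell in males, Tpm1 (a tropomyosin, -0.24 ± 0.0657, edgeR adjusted p = 0.0297) and Myoz3 (a Z-disc protein of fast fibres, -0.29 ± 0.0782, 0.0355), and 0 rose. Neither passed without C-del libraries 1 and 2 (-0.12, 0.0852, and -0.13, 0.0894), where 1 other gene of the list was higher, or without mock libraries 3 and 4 (0.157 and 0.176). In females 0 passed (edgeR; 2 lower and 0 higher with raw p under 0.05). In the mean of both sexes Pvalb (parvalbumin, the calcium buffer of fast fibres, -0.41 ± 0.0987, 0.0285) and Gpd1 (-0.30 ± 0.0801, 0.0454) were lower, and neither passed without male C-del libraries 1 and 2 (-0.305, 0.14, and -0.21, 0.195) or without male mock libraries 3 and 4 (0.0962 and 0.174). The list's medians were -0.05 in males and -0.21 in females. Atp2a1, the calcium pump of fast fibres, stood at -0.01 ± 0.0616 and -0.10 ± 0.11.

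Of 12 thick filament proteins and myosin chaperones tested, 3 rose and 1 fell in males, where 5.8% of all genes rose and 5.37% fell. Hsp90aa1, a chaperone that folds the myosin head, rose by 0.99 ± 0.0656 (edgeR, adjusted p = 5.87e-07). Mybpc1, slow myosin-binding protein C, rose by 0.31 ± 0.0436 (0.000418), as did Myom3 by the value given above, and Obsl1 was lower (-0.27 ± 0.0627, 0.0134). Hsp90aa1 and Mybpc1 also passed without C-del libraries 1 and 2 (0.90, 6.04e-07, and 0.33, 0.000239) and without mock libraries 3 and 4 (1.03, 3.13e-05, and 0.33, 0.0121). Myom3 passed without the former pair (0.51, 0.0333) and not without the latter (1.06, 0.109), and Obsl1 the reverse (-0.19, 0.115, and -0.34, 0.02). In females Mybpc1 gave nearly the same value, 0.30 ± 0.111 (0.323), and Hsp90aa1 gave 0.05 ± 0.133. The difference of the Hsp90aa1 effects between the sexes passed (-0.95 ± 0.144, adjusted p = 0.0103), but not without any of the 3 pairs of libraries (-0.97 to -0.69, adjusted p 0.0557 to 0.0735). In females 0 of the 12 passed (edgeR; 2 higher and 0 lower with raw p under 0.05).

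Of 14 myosin light chains and kinases tested, 4 fell in males and 0 rose, where 5.37% of all genes fell and 5.8% rose. These were Mylk and Myl9, both of smooth muscle (-0.30 ± 0.0737, adjusted p = 0.0168, and -0.25 ± 0.0649, 0.0233), Myl4, the atrial and fetal light chain (-0.43 ± 0.128, 0.0449), and Myl10 (-0.58 ± 0.174, 0.0459), by edgeR. Of these, Mylk and Myl4 passed without C-del libraries 1 and 2 (-0.32, 0.041, and -0.57, 0.0279) and only Myl10 without mock libraries 3 and 4 (-0.81, 0.0212). In females Mylk stood at 0.31 ± 0.103 (0.263), and its difference between the sexes passed (0.61 ± 0.122, 0.045), though not without any of the 3 pairs (0.51 to 0.64, 0.153 to 0.217). Of 6 other myosin heavy chains tested, 1 fell in males, the smooth muscle chain Myh11 (-0.27 ± 0.0671, 0.0204), which did not pass without mock libraries 3 and 4 (-0.28, 0.0899). The extraocular chain Myh13, next to Myh8 on chromosome 11, was at 33 to 151 CPM and gave 0.05 ± 0.58 in males and -0.16 ± 0.212 in females. In females 0 of the light chains or other heavy chains passed (edgeR; 2 and 2 higher, 1 and 0 lower with raw p under 0.05).

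Of 31 regulators of fibre type, 3 rose and 8 fell in males, where 5.8% of all genes rose and 5.37% fell. Without C-del libraries 1 and 2 the counts of regulators were 4 and 4, and without mock libraries 3 and 4 they were 1 and 9. Vgll2, a cofactor of TEAD factors, was lower (-0.52 ± 0.0462, edgeR adjusted p = 1.08e-05), as was Eya1, a transcriptional cofactor of the fast programme (-0.66 ± 0.08, 0.000135). Rcan1, a target and inhibitor of calcineurin, was also lower (-0.39 ± 0.0645, 0.00155), whereas Nfatc2, a factor that calcineurin activates, was higher (0.59 ± 0.0969, 0.0014). These 4 also passed without either pair of male libraries. So did Mafa, described below, which was lower in males (-0.71, edgeR adjusted p = 0.00669). It stood at -0.84 (0.0104) without mock libraries 3 and 4 and at -0.51 (0.00563) without C-del libraries 1 and 2. In males the calcineurin subunit Ppp3ca (-0.21, edgeR adjusted p = 0.0125) and Nfatc1, another factor that calcineurin activates (-0.25, 0.0275), were lower. Both passed without mock libraries 3 and 4 (0.0442 and 0.00428) but not without C-del libraries 1 and 2 (0.0864 and 0.128). In females 0 passed (edgeR; 3 higher and 1 lower with raw p under 0.05). In the mean of both sexes Eya1 was lower (-0.45 ± 0.0828, 0.00595), and so was Mafa, a large MAF factor tied to the IIb chain (-0.52 ± 0.125, 0.0312), and Nfatc2 was higher (0.37 ± 0.103, 0.049); without male C-del libraries 1 and 2 none of these 3 passed (adjusted p 0.0535 to 0.15), and without male mock libraries 3 and 4 only Eya1 did (-0.48, 0.0217). Mafa also did not pass without female mock libraries 2 and 3 (-0.41, 0.194).

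Regeneration was read beside Myh3 and Myh8, which regenerating fibres use. Of 15 regeneration and developmental genes tested in males, 4 rose, namely Cdkn1a (a cell cycle inhibitor, 0.80 ± 0.131, edgeR adjusted p = 0.00128), H19 (0.61 ± 0.0945, 0.00306), Cdh15 (M-cadherin of satellite cells, 0.39 ± 0.0719, 0.00315) and Des (desmin, 0.20 ± 0.0507, 0.0228). Myl4 fell. Over all genes tested in males, 5.8% rose and 5.37% fell. The counts of this list were 3 higher and 1 lower without C-del libraries 1 and 2, and 2 and 0 without mock libraries 3 and 4. In females 0 passed (edgeR; 1 higher and 4 lower with raw p under 0.05).

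Of the lists of other cell types, 0 of 11 macrophage and 0 of 5 leukocyte genes tested passed in males or in females (edgeR; with raw p under 0.05, 1 macrophage gene was higher in males, and 11 and 5 were lower in females). Their medians were 0.69 and -0.02 in males and -2.37 and -3.49 in females. Without male C-del libraries 1 and 2, 3 of 5 leukocyte and 1 of 12 macrophage genes tested were lower in males by edgeR. Over all genes 3.24% were lower there. That pair had been set apart by its macrophage markers, so these calls are not independent of that choice. Without male mock libraries 3 and 4, 0 of either list passed in males. Over all genes tested, 5.37% fell in males and 2.42% rose in the mean of both sexes. Of 15 tendon genes, 2 fell in males, Egr1 (-2.06 ± 0.313, 0.0103) and Tnmd (-0.80 ± 0.219, 0.0438), with a median of -0.87. Neither passed without mock libraries 3 and 4 (-2.19, 0.0665, and -0.72, 0.233), and Tnmd did not without C-del libraries 1 and 2 (-0.51, 0.183). Egr1, an immediate early gene not limited to tendon, stood at 1.77 ± 0.422 in females (0.167), and its difference between the sexes passed (3.82 ± 0.582, 0.0225), but not without male mock libraries 3 and 4 (3.97, 0.0735) or female mock libraries 2 and 3 (4.24, 0.139). In this list 0 passed in females (edgeR; 2 higher and 0 lower with raw p under 0.05). Of 10 spindle and nerve genes, 1 fell in males, Ngfr (-0.94 ± 0.231, 0.0177), with sums of 113 to 123 CPM in C-del and 112 to 160 in mock libraries, and it did not pass without mock libraries 3 and 4 (-0.74, 0.177). In females 0 passed (edgeR; 1 higher and 0 lower with raw p under 0.05), with sums of 105 to 172 CPM in C-del and 97.1 to 142 in mock libraries. In the mean of both sexes 1 was higher, Egr3, a transcription factor that spindles need (1.60 ± 0.386, 0.033). It stood at 0.40 ± 0.326 in males and 2.80 ± 0.624 in females (0.156), where the mock libraries held 0.55 to 3.16 CPM and those with C-del 4.82 to 19.2 CPM, and the mean did not pass without any of the 3 pairs (1.29 to 1.90, 0.0924 to 0.162). Spindle fibres also make developmental and slow chains; the part of these cells in the values of Myh3, Myh7 and Myh8 was not tested.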

How the data were processed

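RNA-seq libraries of mouse tibialis anterior were used as deposited. The authors deposited, for each sex, a table of expected counts (often fractional), for which the submitters' processing notes name featureCounts 2.0.0 and GRCm38.p6. Aligner and counting options: not given in the sources used here. No per-sample column of another sample was found. Female columns match sample titles, while male ones show only their group. The male numbers used here come from the columns and were not used as pairs.

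Counts were rounded to whole numbers and kept by filterByExpr with a minimum count of 10. They were scaled by TMM and tested with edgeR 4.0.16's robust quasi-likelihood test in R 4.3.3 (limma 3.58.1; DESeq2 1.42.0 as an alternative). Each sex was fitted alone; the mean and the difference of the sexes came from 1 fit of all 15 libraries. Passing means an adjusted p (Benjamini-Hochberg, all genes tested) under 0.05. CPM uses TMM-scaled library sizes, and correlations use log2(CPM + 1). Lengths are unions of GENCODE M21 exons (GRCm38), and promoters are from RefSeq. Shares and ratios were compared with exact two-sided permutation tests (Python 3.11.15). The script was tested on simulated data. Counts of library pairs within a group differed by a chi-square of 2.48 to 40.2 per gene, above sampling noise. Each library was counted once, but a spread above that noise does not show that libraries are separate animals. In male C-del, libraries 1 and 2 (4.52) and 3 and 4 (4.26) lay closer than pairs across them (11.2 to 13.6). The closest pair was male mock 3 and 4 (2.48). The female mock pairs lay furthest apart (23.2, 35.7 and 40.2), against 13.6 at most in the other groups.

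Named genes are the 7 chains, the 3 genes most like each (mean of at least 1 CPM in both sexes), overlapping genes, Lsmem2, and up to 4 genes per list (those passing in a sex by smallest p, else the most abundant). Other passing list genes and the slow troponins are named after their values were seen. List calls and correlations without pairs of libraries were added after the data were seen. The members and lists were chosen with earlier results of these data known.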

Additional observations from a re-analysis of the deposited data

Results flagged for a closer look

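In the male mock group, library 2 had the highest Myh6 level, 6.087 CPM, with the other 3 libraries between 3.66 and 4.01 CPM. The gap to its nearest neighbour was large against the range of the group. The same library stood apart in the share of Myh6 among the 7 chains, 0.009073%, which is the same measurement on another scale. Of 54 groups examined in this way 2 stood out, and chance gives about 1 in 20.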

How the results depend on the processing

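Across the alternatives other than leaving out 1 library, 507 values kept their direction, side of the threshold or size. Of the others, 10 passed only there, 11 no longer passed, 32 moved and 12 changed sign. Leaving out 1 library gave 516, 9, 24, 35 and 16 in the same order. Without 1 or 2 libraries, the male shares of Myh1 and Myh4 and their ratio could not reach 0.05 in the exact test. They were all the calls lost on leaving out 1 library, and part of those lost elsewhere. The other calls lost were those of Myh1 and Myhas in males. The cause of the other changes was not tested. The mean effect on Myh2 passed in all 27 alternatives run for it (0.69 to 0.89). In males, Myh1 no longer passed with library size alone (0.3712), no filter (0.3878), without mock libraries 3 and 4 (0.3723) and in the joint fit of 15 libraries (0.3902). Myh2 passed with DESeq2 (0.2741) and Myh4 with library size alone (-0.3568), and Myh3 changed sign without mock libraries 3 and 4 (0.00849). The male genes passing numbered 1624, but 767 without mock libraries 3 and 4 and 380 in the joint fit; the chains passing were 2 with DESeq2 and 0 without mock libraries 3 and 4, with no filter and in the joint fit. In females, Myh2 passed with DESeq2 and with no filter (1.29 both) and in the fit of all libraries (1.285). Without mock libraries 2 and 3, Myh1 (-0.09875), Myh6 (-0.1331) and Myh8 (-0.03876) changed sign. The female genes passing were 5 with upper quartile scaling, 377 with DESeq2, 16 with no filter, 4 without mock libraries 2 and 3 and 777 in the joint fit; 1 chain passed with DESeq2, with no filter and in the fit of all libraries. For the mean of both sexes, Myh1 passed with DESeq2 (0.2672), and Myh4 with library size alone (-0.314), DESeq2 (-0.2902) and without female mock libraries 2 and 3 (-0.4291), where Myh8 (-0.06704) and Myhas (0.08145) changed sign. Genes passing were 1087 with DESeq2, 218 without male mock libraries 3 and 4 and 192 without male C-del libraries 1 and 2, and chains passing 2 with library size alone, 3 with DESeq2 and 2 without female mock libraries 2 and 3. For the difference between the sexes, Myh2 passed with DESeq2 (1.012). Myh4 changed sign without male C-del libraries 1 and 2 (-0.1313) and female mock libraries 2 and 3 (-0.1947), and Myh7 without male mock libraries 3 and 4 (-0.09699) and female mock libraries 2 and 3 (-0.05639). Genes passing were 26 with library size alone, 656 with DESeq2, 6 without male mock libraries 3 and 4 and 9 without male C-del libraries 1 and 2, with 1 chain under DESeq2. Without male mock libraries 3 and 4, the male share differences were 9.744 for Myh1, -10.68 for Myh4, 0.007529 for Myh3 and 5.563e-05 for Myh7; without C-del libraries 1 and 2 they were 3.721 for Myh1 and -3.917 for Myh4. The log2 ratio of Myh1 to Myh4 then differed by 0.7679 and 0.3168. With 2 libraries in a group the exact test cannot reach 0.05. Leaving out 1 library at a time gave these ranges. In males Myh2 ran from 0.1804 to 0.3469, Myh4 from -0.4296 to -0.2478, genes passing from 1100 to 1526 and chains passing from 1 to 2. In females Myh2 ran from 1.144 to 1.485, Myh6 from -0.1564 to 0.1918, Myh7 from -1.125 to 0.09065, genes passing from 1 to 1050 (the highest without mock library 1) and chains passing from 0 to 1. For the mean, Myh1 ran from 0.2243 to 0.3393, Myh4 from -0.3533 to -0.2117, Myhas from -0.1736 to 0.2014, genes passing from 368 to 2085 and chains from 1 to 2. For the difference, Myh2 ran from 0.8743 to 1.218, Myh4 from -0.0498 to 0.2334, Myh7 from -0.4398 to 0.7795, Myhas from -1.151 to -0.4087, genes passing from 10 to 1817 and chains from 0 to 1. Male share differences ran from 7.204 to 11.49 for Myh1, -12.35 to -7.802 for Myh4, -0.02611 to 0.005791 for Myh3 and -0.002078 to 0.03416 for Myh8, and the ratio of Myh1 to Myh4 from 0.5742 to 0.8855; with 3 libraries against 4 the smallest exact p is 0.0571. Female share differences ran from -0.001056 to 0.002095 for Myh6 and -0.01409 to 0.003968 for Myh7. Of the 3 genes most like a chain, Spearman's rho kept 1 for Myh1, Myh2 and Myh6 and 0 for Myh3, Myh4, Myh7 and Myh8. Myh3 in females ran from 0.471 to 1.295. What depth limits in Myh6 and Myh7 was not tested.

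Female libraries carry numbers in their titles, and same-numbered libraries showed no shared deviation (correlations -0.131, -0.0145 and -0.0424). Differently numbered ones gave -0.163 to 0.202. So few libraries cannot exclude pairing, and the numbers were not used as pairs in the main fit. With the number as a replicate block the female log2 fold change of Myh2 was 1.31 (edgeR, adjusted p = 0.213), 2 genes passed and 0 chains did.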
